A study of Mus musculus with 4 samples.

Results

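DNA replication in mouse tumor stroma and tumor T cells is described here through 44 genes, the core factors that license, open and copy DNA together with the enzymes that make its building blocks. The genes were chosen by name for their known role, with earlier results of these data already known, so they are not an independent list. Each was found through the transcript accession of its array probes. All 44 were on the array, among 22911 gene symbols that its spots could be given. RNA came from C57BL/6Ncr mice of 8 weeks, either Wt or Sipa1-/-, whose subcutaneous tumors were collected 12 days after injection in Matrigel of 15000 Bcr-Abl+ hematopoietic progenitor cells (HPCs) per mouse. These HPCs were Wt bone marrow cells transduced with p210 Bcr-Abl by a retrovirus and marked by GFP, so the leukemia cells carried intact Sipa1 in both hosts. Mesenchymal stroma cells (MSCs) were sorted as GFP- CD45- Ter119- CD31- cells, a gate that rests on absent markers alone, and CD8+ T cells as GFP- TCRb+ CD8+ cells. The labels give 5 mice per genotype and 1 array for each of the 4 conditions. How cells of the mice were combined is not given in the sources used here. Without replicate arrays, the differences below are given as measured values and none could be tested.

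Before a cell divides, the origin recognition complex, Cdc6 and Cdt1 load the Mcm2 to Mcm7 ring onto DNA, and Cdc45 and the GINS proteins turn that ring into the working CMG helicase. Polymerase alpha with its primase starts each strand, the clamp loader RFC places the PCNA clamp, polymerases delta and epsilon extend the strand, and flap endonuclease and ligase seal the pieces made on the lagging strand. Many of these genes are transcribed as cells enter S phase, under E2F factors, and their mRNA is widely read as a sign of proliferation.

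The letters that E2F factors are known to bind were looked up in the promoter windows of RefSeq (GRCm38.p6), which run from 250 bases before to 50 bases after the start of a gene. Of the 44 genes, 36 had a window. The words TTTCGCGC, TTTGGCGC, TTTCCCGC and TTTGCCGC, on either strand, were found in 14 of the 36 windows (38.9%). They were found in 4.2% of 12096 genes with a window that were measured in MSCs, and in 2.3% of all 32851 windows. In 8 genes a match lay before the start (Mcm6, Mcm5, Mcm7, Orc1, Cdc6, Gins3, Rfc3 and Pola1), and in 6 at or after it only (Mcm3, Lig1, Pold1, Pold3, Cdt1 and Pole2). The stretches of 5 of the former are shown, chosen after their values were seen, because they cover helicase, licensing and GINS genes with large and small differences in MSCs. Capitals mark the matching words, which overlap in Mcm6 and Mcm5, and each stretch is written 5′ to 3′ on the strand of its gene.
Mcm6, chr1:128359725-128359835, minus strand: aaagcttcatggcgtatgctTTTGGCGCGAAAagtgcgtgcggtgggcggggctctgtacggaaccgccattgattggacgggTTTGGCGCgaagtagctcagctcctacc
Mcm5, chr8:75109336-75109387, plus strand: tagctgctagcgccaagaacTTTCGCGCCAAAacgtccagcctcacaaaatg
Orc1, chr4:108579407-108579453, plus strand: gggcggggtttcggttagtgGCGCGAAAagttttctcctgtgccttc
Cdc6, chr11:98907993-98908040, plus strand: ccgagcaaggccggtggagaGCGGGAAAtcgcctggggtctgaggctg
Gins3, chr8:95633498-95633545, plus strand: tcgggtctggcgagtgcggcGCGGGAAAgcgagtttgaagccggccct
The same words without their first T, which include every match above, were in 23 of the 36 windows (63.9%) and in 17.5% of the measured genes. The other motifs searched on both strands were less far from the measured genes. The CCAAT box (CCAAT) was in 58.3% of the windows against 42.4%, the Sp1 box (GGGCGG) in 27 windows against 62.3%, and the CHR element (TTTGAA or TTCGAA) in 22.2% against 17.1%. A match is a description of letters and shows no binding.

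Between 60.3% and 65.3% of the 59305 non-control spots were well above background on the 4 arrays, and no such spot was saturated. All arrays were on 1 slide with 1 scan time. Levels are log2 signals minus the 75th percentile of the array, and they are compared for a gene between arrays, never between genes. Repeated spots of a probe had a median SD of 0.039 to 0.044 in log2 signal, a measure of spot noise that leaves out any variation from mouse to mouse. Sipa1 itself, the GTPase activating protein deleted here, had levels of 4.04 in Wt MSCs, 2.62 in Sipa1-/- MSCs, 4.42 in Wt CD8+ T cells and 2.56 in Sipa1-/- CD8+ T cells, lower in both knockout arrays and well above background on all.

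In MSCs the replication genes were lower on the Sipa1-/- array as a block. All 44 had a log2 ratio of Sipa1-/- over Wt below 0, where 48.2% of the 15298 measured genes had one. Their median ratio was -1.69, that is 3.22-fold lower, against 0.04 for all measured genes. In 40 of the 44 (90.9%) the difference was at least 2-fold, a size reached downward by 11.3% of all measured genes, and in 7 it was at least 4-fold. None was 2-fold higher, where 19.3% of all genes were. With the constants of the authors' value table as scaling, 1280 of all 15298 genes were 2-fold lower and 3670 higher, in place of 1733 and 2958, and the median of the 44 was -1.48. In bulk RNA, fewer cycling cells and less of these transcripts per cell cannot be told apart. B lineage and pan-leukocyte markers were also lower on the Sipa1-/- MSC array, with medians of -4.22 and -2.15, and their part in these ratios was not tested.

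**Figure D1:**
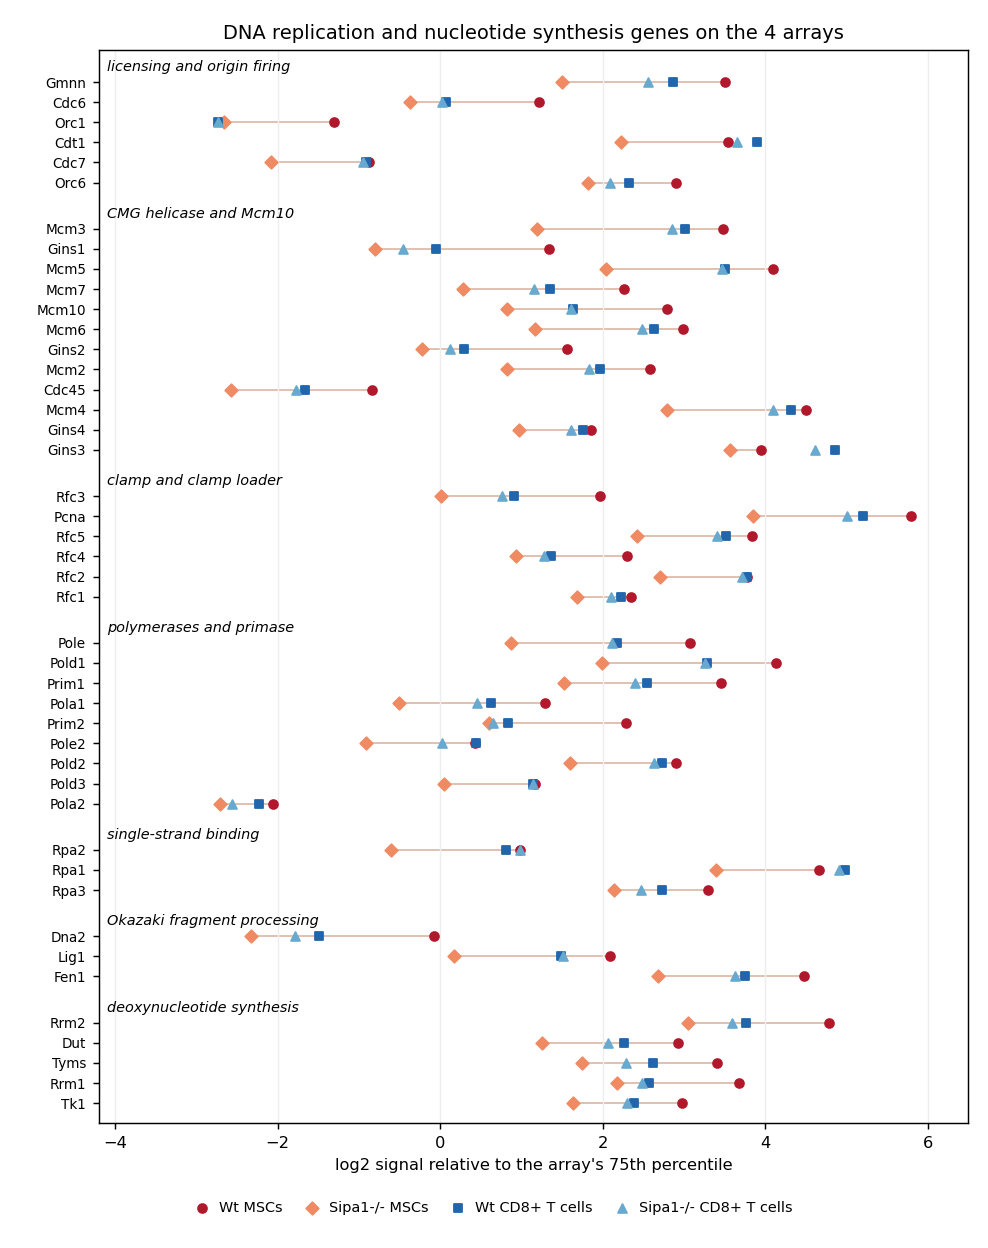
Each row is a gene, grouped by role, and the horizontal axis is its log2 signal relative to the 75th percentile of the array. The 4 symbols are the 4 arrays, 1 per condition with no error bar, and the thin line joins both MSC arrays. The Sipa1-/- MSC array is the lowest of the 4 for 43 genes and the Wt MSC array the highest for 40.

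The licensing and origin firing genes, which decide where and when replication may start, were lower by a median of -1.34, with 6 of 6 at least 2-fold lower in Sipa1-/- MSCs. Gmnn, the geminin that blocks relicensing by holding Cdt1, had levels of 3.51 in Wt MSCs, 1.51 in Sipa1-/- MSCs, 2.86 in Wt CD8+ T cells and 2.56 in Sipa1-/- CD8+ T cells. Its MSC ratio of -2.0 was the lowest of the group. Cdc6, a loader of the Mcm ring, had levels of 1.22, -0.37, 0.07 and 0.03 in the same order, so that the Wt MSC array stood above the other 3. Orc1, an ATPase subunit of the origin recognition complex, showed the same in a sharper form, at -1.30 in Wt MSCs against -2.66, -2.73 and -2.73. These levels were low, and the MSC ratio of Orc1 ran from -1.5 to -0.88 over the processing settings. Cdt1, the other loader, was arranged differently under the reported scaling. Its levels of 3.90 and 3.66 in Wt and Sipa1-/- CD8+ T cells both exceeded the 3.54 of Wt MSCs, while Sipa1-/- MSCs had 2.23. Over the processing settings its ratio of Wt MSCs over Wt CD8+ T cells ran from -0.59 to 0.09. Cdc7, the kinase that fires origins, had levels of -0.87 and -2.08 in MSCs and of -0.92 and -0.95 in CD8+ T cells. Only the Sipa1-/- MSC array was apart for this gene. Orc6, a further origin subunit, had an MSC ratio of -1.08, close to the 2-fold line.

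The helicase genes had a median MSC ratio of -1.80, and 10 of 12 were at least 2-fold lower in Sipa1-/- MSCs. Mcm3 had levels of 3.48 in Wt MSCs, 1.19 in Sipa1-/- MSCs, 3.01 in Wt CD8+ T cells and 2.85 in Sipa1-/- CD8+ T cells. Its MSC ratio of -2.29, or 4.88-fold lower, was the lowest of all 44 genes, and its 3 probes gave -2.69, -2.12 and -2.05. Mcm5 went from 4.09 to 2.04 in MSCs and stood at 3.51 and 3.48 in CD8+ T cells. The other ring subunits were close to each other, with MSC ratios of -1.97 for Mcm7, -1.81 for Mcm6, -1.77 for Mcm2 and -1.71 for Mcm4. The 6 subunits of the ring thus lay between -2.29 and -1.71, a narrow part of the range of the 44. Mcm10, which helps the helicase start, had a ratio of -1.97, and Cdc45, the helicase cofactor, -1.74.

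The 4 GINS genes, whose proteins form 1 complex, differed among themselves. Gins1 had levels of 1.34 in Wt MSCs and -0.80 in Sipa1-/- MSCs, a ratio of -2.14, and Gins2 had a ratio of -1.79. Gins4 was under 2-fold at -0.88. Gins3 had levels of 3.95 and 3.57 in Wt and Sipa1-/- MSCs and of 4.86 and 4.61 in Wt and Sipa1-/- CD8+ T cells. Its MSC ratio of -0.38 was the smallest difference of all 44 genes, it rests on 1 probe, and both CD8+ T arrays were above both MSC arrays. The promoter stretch shown above for Gins3 holds an E2F word, as do those of Mcm6 and Mcm5. Over the 36 genes with a window, the median MSC ratio was -1.81 with such a word, ranging from -2.29 to -0.38, and -1.54 without, ranging from -2.24 to -0.65, so both ranges overlapped over most of their length. With the shorter words the order was the other way, at -1.59 with and -1.66 without. Any part of these words in the ratios was not tested.

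The clamp and clamp loader genes had a median MSC ratio of -1.39, with 5 of 6 at least 2-fold lower. Pcna, the sliding clamp that tethers the polymerases, had levels of 5.79 in Wt MSCs, 3.85 in Sipa1-/- MSCs, 5.21 in Wt CD8+ T cells and 5.01 in Sipa1-/- CD8+ T cells. The Sipa1-/- MSC array was more than 2-fold below each of the other 3. Of the RFC subunits that open the clamp, Rfc3 had a ratio of -1.95, Rfc5 of -1.42, Rfc4 of -1.37 and Rfc2 of -1.08. Rfc1, the largest subunit, had levels of 2.35 and 1.69 in MSCs, a ratio of -0.66 that stayed under 2-fold.

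The polymerase and primase genes had a median of -1.70, and 8 of 9 were at least 2-fold lower. The catalytic subunits of the polymerases that extend the strands lay at the low end. Pole had levels of 3.08 in Wt MSCs, 0.87 in Sipa1-/- MSCs, 2.18 in Wt CD8+ T cells and 2.11 in Sipa1-/- CD8+ T cells, a MSC ratio of -2.21. Pold1 had 4.14 and 1.99 in MSCs and 3.29 and 3.25 in CD8+ T cells, a MSC ratio of -2.14. Their accessory subunits differed less, with MSC ratios of -1.33 for Pole2, -1.31 for Pold2 and -1.12 for Pold3. Polymerase alpha showed a like split. Its catalytic subunit Pola1 had a MSC ratio of -1.80 and the primase subunits Prim1 and Prim2 had -1.94 and -1.70, whereas the accessory subunit Pola2 had -0.65, with low levels of -2.05 and -2.70.

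RPA coats single-stranded DNA as the fork opens, and its 3 genes were all at least 2-fold lower, with a median of -1.27. Rpa2 had levels of 0.99 in Wt MSCs and -0.61 in Sipa1-/- MSCs, and the ratios of Rpa1 and Rpa3 were -1.27 and -1.16. The 3 genes of Okazaki fragment processing had the lowest median of the roles, -1.92. Dna2, a nuclease that trims long flaps, had levels of -0.08 in Wt MSCs, -2.32 in Sipa1-/- MSCs, -1.49 in Wt CD8+ T cells and -1.78 in Sipa1-/- CD8+ T cells. Lig1, the ligase that seals the fragments, went from 2.09 to 0.17 in MSCs, and Fen1, the flap endonuclease, from 4.48 to 2.68. For all 3 genes the Wt MSC array was the highest of the 4 and the Sipa1-/- MSC array the lowest.

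The 5 genes of deoxynucleotide synthesis were all at least 2-fold lower in Sipa1-/- MSCs, with a median of -1.66. Rrm2, the S phase subunit of ribonucleotide reductase, had levels of 4.78 in Wt MSCs, 3.05 in Sipa1-/- MSCs, 3.76 in Wt CD8+ T cells and 3.59 in Sipa1-/- CD8+ T cells. Rrm1, its large subunit, had a ratio of -1.5 and Dut, the dUTPase that keeps uracil out of DNA, of -1.67. Tyms, which makes thymidylate, had a ratio of -1.66 and Tk1, the thymidine salvage kinase, of -1.34. This role spanned a narrow range, from -1.73 to -1.34.

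The 44 genes were read by 63 probes, all of which passed the quality flags on all 4 arrays, so no gene was lost to the filter on dim spots. All 63 probes were lower on the Sipa1-/- MSC array and 58 were so by at least 2-fold. Of 18 genes with several probes, 17 had each probe at least 2-fold lower, and the probes of a gene spanned a median of 0.11 in the MSC ratio. The probes of Mcm3 spanned the most, 0.64.

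In CD8+ T cells the same genes were close to equal between genotypes. Their median ratio was -0.14, 1.1-fold lower on the Sipa1-/- array, and 33 of 44 were within 0.2 of 0. None was 2-fold lower, where 1.40% of 14339 measured genes were, and none 2-fold higher, where 2.66% were. The ratios ran from -0.42 for Pole2, whose levels were 0.44 and 0.03, to 0.17 for Rpa2, whose levels were 0.81 and 0.99. Most of them lay a little below 0, 40 of 44 beside 53.9% of all measured genes, but this direction depends on the scaling, since 24 of 44 were below 0 with the constants of the authors' value table and 43 after a median shift. Relative to the median of all genes, the median of the 44 was lower by -0.12 under each of these 3 scalings and 40 of the 44 were below it. Under quantile normalization it was -0.07 and 35 were below. Besides Rpa2, the genes not below 0 in the values reported were Orc1 at 0.00, Pold3 at 0.01 and Lig1 at 0.03.

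**Figure D2:**
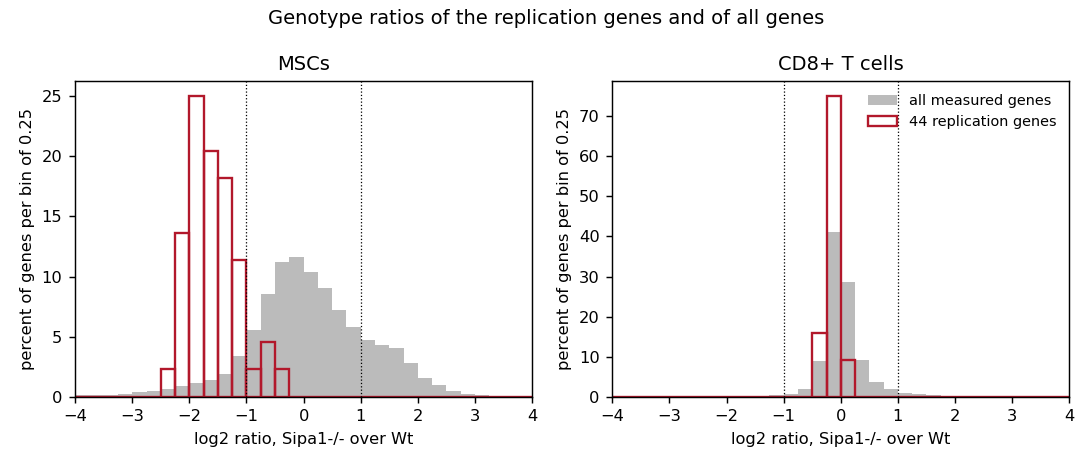
The horizontal axis is the log2 ratio of Sipa1-/- over Wt in MSCs (left) and CD8+ T cells (right), and the vertical axis the percent of genes per bin of 0.25, on a scale of its own in each panel. Gray bars are all measured genes, red outlines the 44 replication genes, and dotted lines mark 2-fold. In MSCs the red bars lie around a median of -1.69, to the left of most gray ones, and in CD8+ T cells around -0.14, inside them.

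The ratio in MSCs was below that in CD8+ T cells for each of the 44 genes. The difference of both ratios had a median of -1.53, from -2.14 for Pole to -0.14 for Gins3, where its median over 13766 genes measured on all 4 arrays was -0.02. For 37 of 44 genes the log2 ratio in MSCs was at least 1 below that in CD8+ T cells. The same held for 11.3% of those 13766. With 1 array per condition this difference could not be tested. Across the 44 genes the order of the ratios in MSCs said little about the order in CD8+ T cells, with a Spearman rho of 0.02 over genes, which are not independent replicates and share the 4 arrays.

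The levels of both cell types place the MSC arrays on either side of the CD8+ T arrays. The comparisons between cell types use the same 4 arrays as the genotype ratios and add no independent value to them. In Wt tumors the median ratio of MSCs over CD8+ T cells was 0.61, 1.53-fold higher in MSCs, and 40 of 44 genes were above 0, where 46.6% of 14225 measured genes were. At least 2-fold higher were 10 of the 44, beside 17.3% of all genes, and 0 were 2-fold lower, beside 12.8%. Prim2 led with 1.46, from levels of 2.29 and 0.83, followed by Orc1 at 1.43 and Dna2 at 1.41. Below 0 were Gins3 at -0.91, Cdt1 at -0.36, Rpa1 at -0.32 and Pole2 at -0.02. These counts move with the scaling, as do those of all genes. After a median shift 31 were above 0, 5 were 2-fold higher, beside 14.6% of all genes, and 1 was 2-fold lower, beside 17.6%. There were 28 genes 2-fold higher, beside 24.9% of all genes, with the constants of the authors' value table. Relative to the median of all genes, 41 of 44 were higher in Wt MSCs under all 3 scalings.

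In Sipa1-/- tumors the order was turned, with a median ratio of MSCs over CD8+ T cells of -0.91, 1.87-fold lower in MSCs. Of the 44 genes, 43 were below 0, where 57.1% of 14300 measured genes were. At least 2-fold lower were 18 of the 44, beside 18.7% of all genes, and 0 were 2-fold higher, beside 21.9%. With the constants of the authors' value table the median was -0.38, 33 genes were below 0, beside 35.6% of all genes, and 2 were 2-fold lower, beside 9.49%. Relative to the median of all genes, 41 of 44 were lower in Sipa1-/- MSCs under this scaling as under the one reported. Mcm3 was the lowest at -1.66, followed by Rpa2 at -1.59 and Rpa1 at -1.51. Orc1, at 0.07, was the gene not below 0. For 36 of the 44 genes the arrays ran from Wt MSCs through Wt and then Sipa1-/- CD8+ T cells to Sipa1-/- MSCs, an order held by 8.48% of the 13766 genes. For 39 of the 44, the Wt MSC array was above and the Sipa1-/- MSC array below both CD8+ T arrays, as in 12.0% of them. Both orders were counted under the reported scaling alone, and the comparisons between arrays that they rest on move with the scaling.

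**Figure D3:**
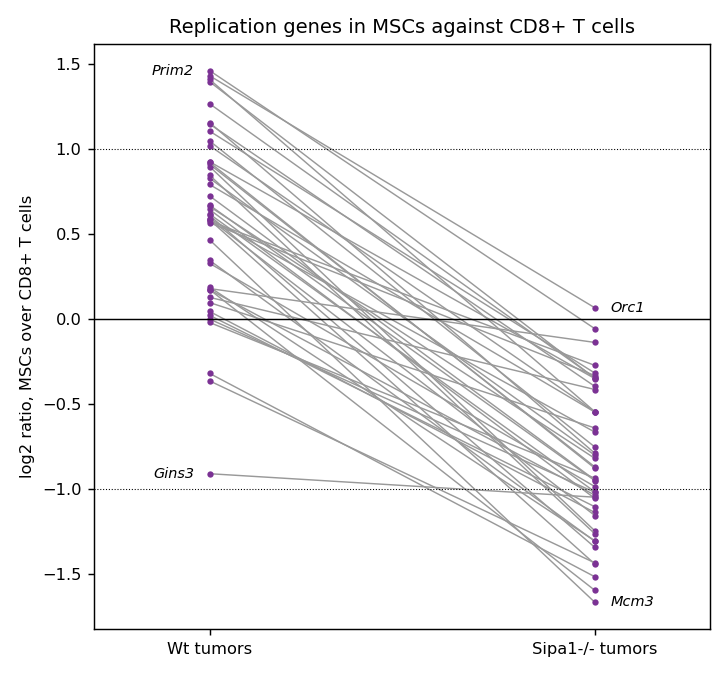
Each line is a gene, and the vertical axis is its log2 ratio of MSCs over CD8+ T cells, in Wt tumors (left) and Sipa1-/- tumors (right), with dotted lines at 2-fold and no error bar, since each ratio comes from 1 array over another. The genes sit around a median of 0.61 in Wt tumors and of -0.91 in Sipa1-/- tumors, and Gins3 has the flattest line.

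Other genes of DNA replication and the cell cycle were examined as lists of their own. Their counts in MSCs stand beside 11.3% of all measured genes at least 2-fold lower and 19.3% at least 2-fold higher. Of 32 other replication factors, 19 were at least 2-fold lower in Sipa1-/- MSCs, with a median of -1.17, from -2.26 for Top2a, the topoisomerase of dividing cells, to -0.16 for Chtf8, part of an alternative clamp loader. Some of these factors, named after their values were seen, belong to the same complexes as genes above and differed less. Orc2, Orc3, Orc4 and Orc5 had MSC ratios of -0.85, -0.42, -0.27 and -0.48, where Orc1 and Orc6 had -1.36 and -1.08. The small polymerase subunits Pole3, Pole4 and Pold4 had -0.52, -0.43 and -0.74. Of 11 genes of replication-coupled chromatin measured, 10 were 2-fold lower, from Uhrf1, which guides maintenance methylation, at -2.85 to Supt16, a histone chaperone, at -0.85.

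Of 38 other genes of nucleotide synthesis, 16 were at least 2-fold lower in Sipa1-/- MSCs and the median was -0.89. Dck, the deoxycytidine salvage kinase, was lowest at -3.08, with levels of 3.29 in Wt MSCs, 0.21 in Sipa1-/- MSCs, 1.65 in Wt CD8+ T cells and 1.29 in Sipa1-/- CD8+ T cells. Samhd1, which breaks deoxynucleotides down, was highest at 0.48. Of 14 repair and translesion polymerases 2 were 2-fold lower, Polq at -1.64 and Polh at -1.17, the latter named after its value was seen, and the median was -0.32. That count is near the share of all measured genes that were 2-fold lower, 11.3%. Of 16 S phase checkpoint genes 7 were 2-fold lower, with a median of -0.97, and Atrip was highest at -0.19. The polymerases that copy the genome thus had a lower median than those that repair it, and all of these medians were below the 0.04 of all measured genes.

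All 28 measured genes of G2 and mitosis were at least 2-fold lower in Sipa1-/- MSCs, with a median of -2.03, from Kif11, a spindle motor, at -2.62 to Ccnf at -1.28. Of 26 regulators of the G1/S step 13 were, with a median of -1.0. Myb, a transcription factor of blood progenitors, was lowest at -3.34, with levels of 1.56 in Wt MSCs, -1.78 in Sipa1-/- MSCs, -0.42 in Wt CD8+ T cells and -0.65 in Sipa1-/- CD8+ T cells. Rbl2, the p130 repressor of E2F targets in resting cells, was highest at 0.80. The 7 CDK inhibitors went both ways, with 3 at least 2-fold lower, 2 at least 2-fold higher and a median of 0.00. Beside them, 11.3% of all measured genes were 2-fold lower and 19.3% higher. Cdkn2c was lowest at -1.55, and Cdkn1c, the p57 inhibitor, was highest at 2.32, with levels of 1.91 and 4.23. The others past 2-fold, named after their values were seen, were Cdkn2b at 1.93, Cdkn2d at -1.33 and Cdkn2a at -1.09. In CD8+ T cells the medians of these 8 lists lay between -0.18 and 0.03, and the 2-fold differences there were Cdkn1c at 1.37 and Rbl2 at 1.11, both higher on the Sipa1-/- array. Cdkn1c was low there, at -2.57 in Wt and -1.2 in Sipa1-/- CD8+ T cells. Fibroblast and MSC markers had a median ratio of 1.51 in the same pair, and their part in the Cdkn1c ratio was not tested.

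**Figure D4:**
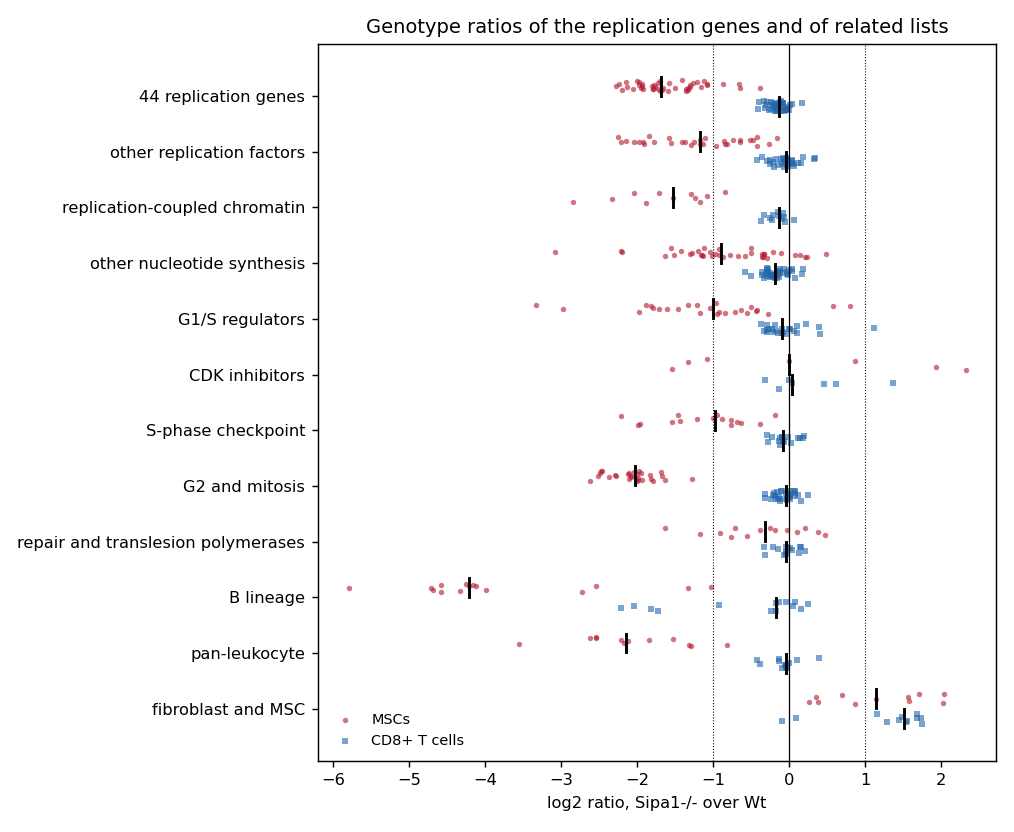
Each point is a gene, red for MSCs and blue for CD8+ T cells, on an axis of the log2 ratio of Sipa1-/- over Wt, and black bars are medians, with dotted lines at 2-fold. The 44 replication genes have medians of -1.69 and -0.14, and the B lineage list, at -4.22 in MSCs, lies farther to the left than any replication list.

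Markers of B lineage cells and of leukocytes in general were lower on the same MSC array as the replication genes, and those of several other cells were not. Of 16 B lineage markers, 15 were measured on both MSC arrays, each of them over 2-fold lower in Sipa1-/- MSCs, with a median of -4.22. Their summed signal, in units of the 75th percentile of the array, was 784 in Wt MSCs, 62.6 in Sipa1-/- MSCs, 37.0 in Wt CD8+ T cells and 27.8 in Sipa1-/- CD8+ T cells. That of the 44 replication genes was 420, 141, 316 and 285 in the same order. Wt over Sipa1-/- MSCs, the B lineage sum was thus 12.5-fold and the replication sum 2.98-fold. Vpreb1, the surrogate light chain of precursor B cells, had levels of 7.57, 3.45, 1.96 and -0.08.

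Of 12 pan-leukocyte markers 11 were at least 2-fold lower in Sipa1-/- MSCs, and their sum was 228, 58.3, 724 and 698. Ptprc, which encodes the CD45 that the MSC gate was set against, was well above background on both MSC arrays at 0.76 and -0.55, below the 4.38 and 4.48 of CD8+ T cells. The fibroblast and MSC markers moved the other way, with a median of 1.14, 11 of 11 measured above 0 and sums of 1080 in Wt MSCs and 1750 in Sipa1-/- MSCs against 259 and 352 in CD8+ T cells. All 12 of them were well above background on both MSC arrays, as were all 10 erythroid and all 10 granulocyte markers on the array, whose sums were 653 and 693, and 745 and 835. Of the 10 CD8 T cell markers on the array, all were well above background on both CD8+ T arrays, with sums of 495 and 510 against 18.7 and 3.99 in MSCs, and Cd8a was not well above background in Wt MSCs. The lower sum in Sipa1-/- MSCs went with Cd2, at 4.08 and 0.56, while 6 of the 9 measured on both MSC arrays were above 0 in their ratio and the median was 0.66. Macrophage markers had a median ratio of 1.04, with 10 of 11 above 0 and sums of 10.4 and 16.1. Endothelial markers had a median of 0.73 and hematopoietic progenitor markers of -0.26, and both lists went both ways. The former ran from -1.49 for Pecam1, which encodes the CD31 of the gate, to 2.06 for Flt1, with 5 of 8 above 0. The latter ran from -3.1 for Cd48 to 2.32 for Meis1, with 4 of 9 above 0.

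In the CD8+ T pair, the B lineage sum was 1.33-fold and the replication sum 1.11-fold, Wt over Sipa1-/-. Granulocyte markers had a median ratio of -1.08, with sums of 635 and 335, and erythroid markers of -1.05, with sums of 16.4 and 7.63. Fibroblast and MSC markers had a median of 1.51, with 10 of 12 at least 2-fold higher in Sipa1-/- CD8+ T cells. The part of these cells in the small ratios of the replication genes was not tested.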

How the data were processed

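RNA of 4 sorted populations was hybridized in 1 color to Agilent SurePrint G3 mouse arrays, 1 array per condition. The deposited scanner values are spot intensities that the authors' Feature Extraction software (9.1 per the labels, 12.0.3.1 per the file headers) corrected for background, with no normalization between arrays. The authors' value table holds these intensities multiplied by 1 constant per array, from 0.9413 to 1.3418, whose origin is not given in the sources used here. The 75th percentile of an array, over non-control spots, was subtracted from its log2 signals. Probes with the flags of the study's methods on both arrays of a pair were kept, and spots, then probes of a gene, were averaged. Symbols came from accessions through a RefSeq table (GRCm38.p6), for 57.6% of non-control spots. Counts used a threshold of 1 for the log2 ratio. The members and lists were chosen with earlier results of these data known. All members are named. Of other lists the highest and lowest gene of a pair and defining markers are named, exceptions are stated, and some such genes are not reported here. Scripts were tested on simulated data. With 4 arrays, their number limits the precision. Alternatives were flags on all 4 arrays, on at least 1 or none, a median shift, quantile normalization, the value table, normexp with an offset of 50, only genes above the median signal, and the brightest probe of a gene. Tools were R 4.3.3, limma 3.58.1, Python 3.11.15, pandas 2.3.3, numpy 2.4.6, matplotlib 3.10.9 and scipy 1.17.1.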

Additional observations from a re-analysis of the deposited data

How the results depend on the processing

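All 44 ratios in MSCs stayed below 0 in every setting that measured them, and 34 genes were at least 2-fold lower in each. The other pairs were less stable. In CD8+ T cells, 17 of the 44 ratios changed sign in some setting. So did 11 for MSCs over CD8+ T cells in Wt tumors and 11 in Sipa1-/- tumors. In that last pair, 2 genes were at least 2-fold lower in every setting. After a median shift the median ratios were -1.83 in MSCs, -0.29 in CD8+ T cells, 0.38 for Wt MSCs over CD8+ T cells with 5 genes 2-fold higher and 1 lower, and -1.13 for Sipa1-/- MSCs over CD8+ T cells. Quantile normalization gave -1.64, -0.10 and 0.67 for the first 3. The authors' value table gave -1.48, -0.01, 1.07 with 28 genes 2-fold higher and -0.38 with 2 genes 2-fold lower, and -1.46 for the ratio in MSCs minus that in CD8+ T cells. Normexp gave -1.58 in MSCs, -0.78 for Sipa1-/- MSCs over CD8+ T cells and -1.43 for that difference, and genes above the median signal gave -0.95 for Sipa1-/- MSCs over CD8+ T cells, over 37 of the 44. The other 97 values of these medians and counts moved by less than the spot noise or 1.5 times. The median shift and the value table add 1 constant to all genes of a pair, so that the median of the 44 in MSCs relative to that of all genes was -1.73 in both, as reported. It was -1.65 under quantile normalization and -1.61 under normexp, and the cause was not tested. No paired analysis was possible because the 4 conditions had a single array each, and no array could be left out. All probes of the 44 genes passed the flags on all arrays, but the ratios of some dim genes moved with the setting. Over the settings the MSC ratio of Cdc7, -1.21 as reported, ran from -1.35 to -0.71. That of Orc1, -1.36 as reported, ran from -1.5 to -0.88, and that of Cdc45, -1.74 as reported, from -1.87 to -1.18.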
